A study of Mus musculus with 14 samples.

Results

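Cells copy their genome in every division, and 4 linked systems keep the copy intact. Homologous recombination rebuilds broken DNA from the sister copy, the Fanconi anaemia pathway removes crosslinks that join both strands, mismatch repair corrects errors left by the polymerases, and the ATR checkpoint holds the cell cycle while replication forks are stalled. Their genes are transcribed mostly in dividing cells, and E2F transcription factors, which the pocket proteins of the Rb family hold back, are known to act on many of them. Embryonic stem cells (ESC) divide fast and depend on recombination and on the ATR checkpoint.

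The 37 genes described here were picked by name for these roles, and 36 of them, of 18194 genes represented on the arrays, were measured. Each was read from 1 probe set, the one with the highest mean over the 14 arrays. Xrcc2 was not analysed here. All 36 passed the filter on low values, a signal above the 40th percentile of the array on at least 3 arrays, which left 14360 genes for testing. By role, 9 belonged to the core of recombination, 6 to resection and the processing of DNA junctions, 9 to the Fanconi anaemia pathway, 4 to mismatch repair and 8 to the checkpoint.

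Affymetrix arrays measured total RNA of mouse ESC and of embryoid bodies (EB), aggregates in which ESC differentiate, and each array of a group came from a different cell line. There were 5 arrays of TKO EB (lines 2-55-2, 14-14-4, 7-4-1, Dutch and Ta1-12), 3 of TKO ESC (7-4-1, Dutch and Ta1-12), 3 of WT EB and 3 of WT ESC (B21, J1 and R1 at both stages). WT is wild type, and TKO was read as loss of Rb1, Rbl1 and Rbl2 together, from the series title and common usage, since the labels do not spell it out. The series asks about cell cycle exit and differentiation without this gene family. Values of single arrays are given below in the order of lines just named. The labels used here name neither the strain nor the alleles nor the length of EB culture.

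Array medians lay between 83.2 and 107.9. The signals of the 3 genes of the family did not follow the labels in every line. Rbl1 was 31.7, 15.9, 38.3, 377 and 1096 in TKO EB and 24.5, 250.3 and 493 in TKO ESC, against 586, 1089.6 and 493 in WT EB and 694, 462 and 356 in WT ESC. Both arrays labelled Ta1-12 thus had an Rbl1 signal within or above the WT range, against their label, and Dutch lay below the lowest WT array of each stage. Rb1 read 913, 492, 834, 888 and 301 in TKO EB and 197, 607 and 116 in TKO ESC, against 1018, 407 and 686 in WT EB and 636, 138 and 791 in WT ESC. Rbl2 read 297, 314, 733, 456 and 1099 in TKO EB and 799.7, 658 and 843 in TKO ESC, against 1727, 1684 and 723 in WT EB and 661, 562 and 411 in WT ESC. Both overlapped between genotypes at each stage, so neither checked the labels. The position of these probes relative to the deletions was not known here, and probes outside them check nothing. Directions that rest on the arrays labelled TKO include Ta1-12 unless its removal is stated.

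Among EB, the mean of 10 pluripotency markers, relative to WT ESC on the log2 scale, was -2.79, -0.72, -4.76, -0.24 and -6.12 in TKO EB and -5.63, -6.14 and -5.25 in WT EB. TKO EB of Dutch and 14-14-4 thus kept these markers near the ESC level, Ta1-12 was in the WT range, and 2-55-2 and 7-4-1 lay between. Of 8 fibroblast markers, 7 rose in EB of both genotypes (medians 7.28 in TKO and 7.53 in WT), so the EB label was borne out in these genes.

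E2F motifs were present near the start of several of these genes, and the stretches that hold them are shown because E2F is the step that the Rb family controls. The motif was searched as TTTCCCGC, TTTGGCGC, TTTCGCGC or TTTGCCGC on both strands, from 250 bases before to 50 bases after each listed gene start. These RefSeq windows (GRCm38.p6) were found for 32 of the 36 genes. The motif was in 10 of their 37 windows (27%), against 3.2% of the 18010 windows of all genes represented on the arrays. It stood in windows of 9 members, and capitals mark it, read 5′ to 3′ on the strand of the gene.
Bard1, chr1:71103164-71103191, minus strand: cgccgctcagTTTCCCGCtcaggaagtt
Brca2, chr5:150522443-150522470, plus strand: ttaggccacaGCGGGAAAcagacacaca
Rad51c, chr11:87404478-87404505, minus strand: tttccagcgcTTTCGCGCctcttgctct
Rad51c, chr11:87404942-87404969, minus strand: ccccgcgaggGCGGGAAAagcaaggggt
Rmi1, chr13:58402613-58402640, plus strand: cccgagggagTTTGGCGCgattggagga
Fancg, chr4:43010336-43010363, minus strand: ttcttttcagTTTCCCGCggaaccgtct
Msh3, chr13:92355188-92355215, minus strand: tgccgtcaagTTTGGCGCgaaatcgcag
Msh6, chr17:87975055-87975082, plus strand: tcctcccgacTTTCCCGCcagcggcggc
Topbp1, chr9:103305188-103305215, plus strand: cgctcggttgGCGCGAAAgtcggttccc
Clspn, chr4:126556991-126557018, plus strand: ccgcgtctggGCGCGAAAgctcgaactt

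In Msh3 a second match on the opposite strand overlaps the one shown, and Rad51c has a match at each of its 2 listed starts. The matches in Clspn, Msh6 and Rmi1 lie just after the start, and so does 1 of the 2 in Rad51c, while the other spans the start. The CCAAT box, bound by NF-Y, was searched as CCAAT on both strands and was in 20 of the 37 windows (54.1%) and in 37.4% of all windows. The cell cycle element CHR, searched as TTTGAA on both strands, was in 3 windows (8.11%) and in 13.4% of all windows. A match is only a run of letters and does not show binding. Whether members with a match changed otherwise than members without one was not tested.

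The upstream stretches of Chek1, Topbp1 and Blm are shown because these 3 members had the smallest p-values for a difference between genotypes in the change from ESC to EB. Capitals mark any E2F, CHR or CCAAT letters in the 250 bases before the start. Chek1 has none of them there, Topbp1 has 1 E2F match and Blm has 2 CCAAT matches.
Chek1, chr9:36726659-36726908, minus strand: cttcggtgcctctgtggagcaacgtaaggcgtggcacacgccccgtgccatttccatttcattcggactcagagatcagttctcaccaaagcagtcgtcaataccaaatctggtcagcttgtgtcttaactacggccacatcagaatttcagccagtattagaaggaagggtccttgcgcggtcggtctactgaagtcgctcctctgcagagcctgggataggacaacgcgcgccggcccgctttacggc
Topbp1, chr9:103305077-103305326, plus strand: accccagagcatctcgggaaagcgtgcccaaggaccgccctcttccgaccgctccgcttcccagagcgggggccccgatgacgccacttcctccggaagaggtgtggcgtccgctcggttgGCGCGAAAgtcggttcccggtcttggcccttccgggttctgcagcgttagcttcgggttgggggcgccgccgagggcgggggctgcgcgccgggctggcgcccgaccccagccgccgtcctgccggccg
Blm, chr7:80534999-80535248, minus strand: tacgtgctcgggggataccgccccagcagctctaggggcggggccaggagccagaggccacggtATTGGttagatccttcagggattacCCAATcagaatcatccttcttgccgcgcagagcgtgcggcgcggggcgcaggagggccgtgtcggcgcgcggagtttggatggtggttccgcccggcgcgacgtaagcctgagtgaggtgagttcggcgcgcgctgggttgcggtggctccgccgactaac

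Repair and checkpoint genes were lower in EB than in ESC, and more of them passed the test in WT than in TKO cells, although the difference between genotypes did not pass for any member. Comparing TKO EB with TKO ESC (5 and 3 arrays), 12 of 36 members fell and 0 rose, with a median log2 fold change of -0.70 against 0.09 for all genes tested. Comparing WT EB with WT ESC (3 and 3 arrays), 30 of 36 members fell and 0 rose, with a median of -1.50 against 0.13 for all genes. Of all 14360 genes, 15% fell and 21% rose in the TKO comparison, and 17.4% fell and 26.5% rose in the WT comparison. EB and ESC arrays did not overlap for 15 members in TKO cells, each lower in EB (14.6% of all genes), and for 34 members in WT cells, 33 lower (25.2% of all genes) and 1, Mus81, higher (35.3%). All 12 members that fell in TKO cells also fell in WT cells, a count with no test of the overlap. These were Brca2, Bard1, Palb2, Rmi1, Fancc, Fancm, Msh3, Msh6, Mlh3, Atrip, Rad1 and Hus1. Fold changes are on the log2 scale with their standard error, from limma fitted over all 14 arrays, and a member passed at a Benjamini-Hochberg adjusted p under 0.05 over all genes tested. In bulk RNA, fewer cells of a type and less RNA per cell cannot be told apart.

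**Figure D1:**
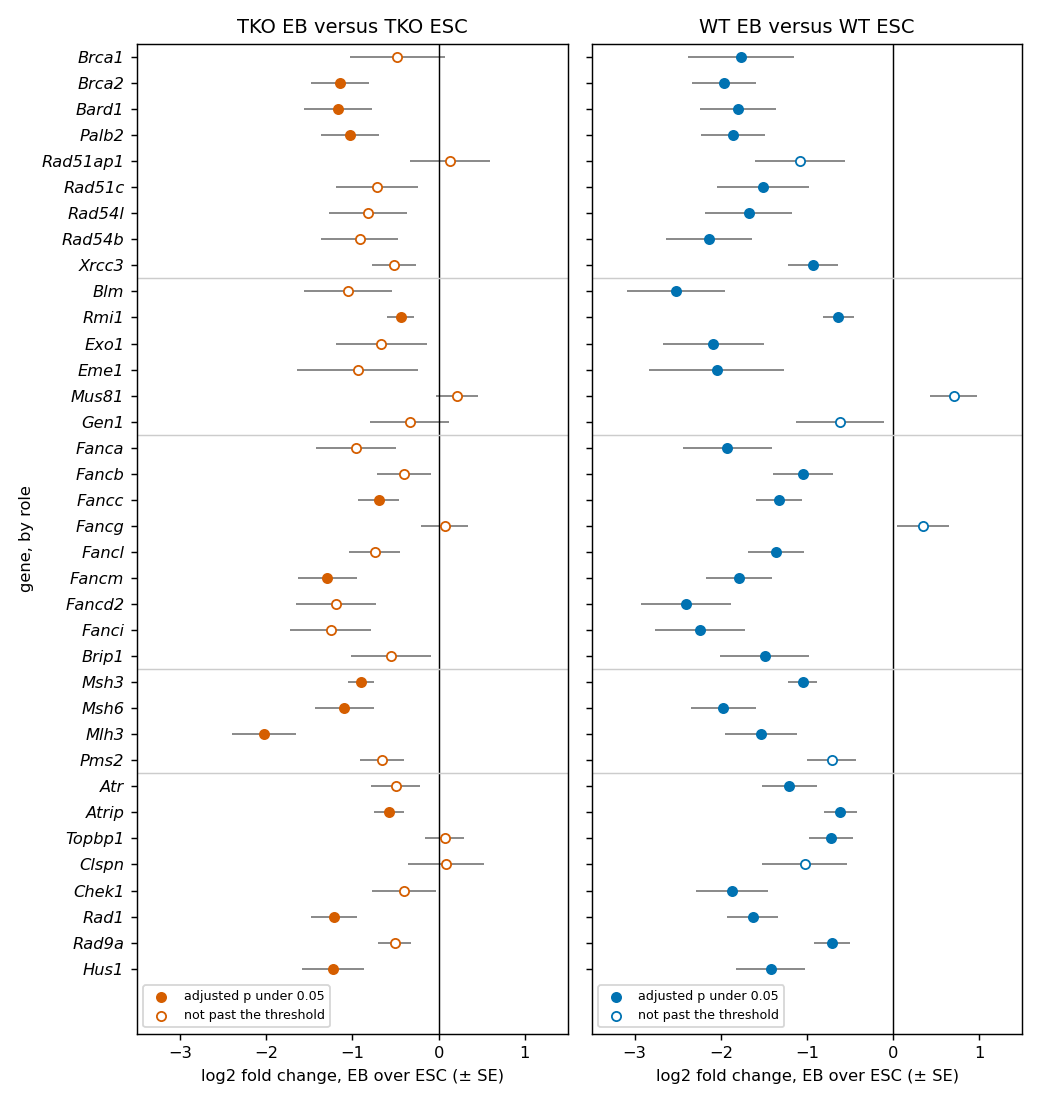
Log2 fold change of EB over ESC with its standard error for the 36 members, ordered by role, in TKO cells (left, 5 and 3 arrays) and WT cells (right, 3 and 3 arrays); filled points passed an adjusted p of 0.05. In TKO cells 12 members are filled, against 30 in WT cells, and all filled points lie below 0.

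The count in TKO cells depended on single arrays. It was 5, 5 and 4 of 36 without TKO ESC of 7-4-1, Dutch and Ta1-12, where 10.2%, 10.4% and 9.93% of all genes fell, and 11 without TKO EB Ta1-12, where 13.8% of all genes fell. Without both Ta1-12 arrays it was 5, where falls made up 8.47% of all genes, and with the line as a block it was 3 (Msh3, Mlh3 and Rad1), where 7.72% of all genes fell. Counts of 3 to 5 of 36 are near these shares of all genes. In WT cells the count stayed between 20 and 33 whichever array was left out, where 12.3% to 19.3% of all genes fell. With the line as a block 26 members fell (14.6% of all genes) and Mus81 rose (23.1%).

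In the core of recombination, 3 of 9 members fell in TKO cells and 8 of 9 in WT cells, against 15% and 17.4% of all genes. Brca2 loads the strand-exchange recombinase onto single-stranded DNA. Its intensity was 974, 1436, 1289, 1516 and 489 in TKO EB, against 2149, 2629.8 and 2266 in TKO ESC. It was 368, 746 and 489 in WT EB, against 2220.1, 1919 and 1875 in WT ESC. All EB arrays lay below all ESC arrays in both genotypes, and the TKO EB arrays other than Ta1-12 lay above every WT EB array. The log2 fold change was -1.14 ± 0.33 (adjusted p = 0.0182) in TKO cells, which was -1.25 ± 0.36 (adjusted p = 0.0507) with the line as a block, and -1.97 ± 0.37 (adjusted p = 0.00169) in WT cells.

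Palb2, the bridge between BRCA1 and BRCA2, read 440.1, 562, 596, 884 and 249.8 in TKO EB and 1086, 943 and 1058 in TKO ESC. In WT cells it read 192, 276 and 363 in EB and 1130.3, 967 and 837 in ESC. Neither genotype had overlap between stages, and only Ta1-12 of the TKO EB arrays was in the WT EB range. The change was -1.03 ± 0.34 (adjusted p = 0.0307) in TKO cells, -1.01 ± 0.42 (adjusted p = 0.126) with the block, and -1.86 ± 0.38 (adjusted p = 0.00233) in WT cells. Rad54b, a DNA motor of strand exchange, had 414, 429, 611, 565 and 122 in TKO EB and 793, 661 and 682 in TKO ESC. In WT EB it had 87.2, 199.8 and 136, against 668, 608 and 499 in WT ESC. Stages did not overlap in either genotype, with a change of -0.92 ± 0.45 (adjusted p = 0.126) in TKO cells, past no threshold, and of -2.14 ± 0.50 (adjusted p = 0.00486) in WT cells.

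Bard1, the partner of BRCA1 in its ubiquitin ligase, had -1.17 ± 0.39 (adjusted p = 0.0349) in TKO cells, lost with the block at -1.12 ± 0.46 (adjusted p = 0.117), and -1.81 ± 0.44 (adjusted p = 0.0062) in WT cells. Its 3 WT EB arrays and TKO EB Ta1-12 lay under the floor of 32, so these changes are understated. Brca1 had -0.48 ± 0.55 (adjusted p = 0.519) in TKO cells and -1.77 ± 0.61 (adjusted p = 0.0335) in WT cells. The other WT falls were in Rad54l (-1.68 ± 0.50) and in Rad51c (-1.51 ± 0.53) and Xrcc3 (-0.93 ± 0.29), paralogues of the recombinase. Those 3 genes had -0.82 ± 0.45, -0.71 ± 0.48 and -0.52 ± 0.26 in TKO cells, where none passed. Rad51ap1, which helps strand exchange, passed in neither genotype, at 0.13 ± 0.46 (adjusted p = 0.845) in TKO cells and -1.08 ± 0.52 (adjusted p = 0.107) in WT cells.

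Among the 6 genes of resection and junction processing, 1 fell in TKO cells and 4 in WT cells, against 15% and 17.4% of all genes. The TKO count is near the share of all genes. Blm is the helicase that unwinds and dissolves recombination junctions. It measured 950.1, 1363, 1301, 1547 and 238 in TKO EB and 1852, 1739 and 2078 in TKO ESC, and 219.6, 422 and 514 in WT EB and 2412, 2155 and 1725 in WT ESC. The 4 TKO EB arrays other than Ta1-12 lay below every ESC array and above every WT EB array, and Ta1-12 lay within WT EB. The change was -1.05 ± 0.51 (adjusted p = 0.124) in TKO cells and -2.52 ± 0.57 (adjusted p = 0.00416) in WT cells, where Blm had the largest fall of all 36 members.

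Exo1, an exonuclease that resects DNA ends and also serves mismatch repair, had 2429, 1949, 2419, 1887 and 426 in TKO EB and 3365, 2110.2 and 2121 in TKO ESC. Its WT values were 289, 746 and 711 in EB and 3251, 1961 and 1840.1 in ESC. Stages overlapped in TKO cells and not in WT cells, with -0.66 ± 0.53 (adjusted p = 0.343) in TKO cells and -2.09 ± 0.59 (adjusted p = 0.0128) in WT cells. Rmi1, the partner of BLM, changed little but evenly, with 1012, 1570.4, 1308, 1559 and 1241 in TKO EB and 1702, 1661 and 2043 in TKO ESC. It had 1035, 1119 and 1217 in WT EB and 1795, 1805 and 1632 in WT ESC, again with no overlap. The fall was -0.44 ± 0.16 (adjusted p = 0.0455) in TKO cells, lost with the block at -0.40 ± 0.19 (adjusted p = 0.169), and -0.64 ± 0.18 (adjusted p = 0.0123) in WT cells.

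The endonuclease pair Eme1 and Mus81 did not move together. Eme1 had -0.94 ± 0.70 (adjusted p = 0.314) in TKO cells and -2.05 ± 0.78 (adjusted p = 0.0498) in WT cells, where the block gave -2.05 ± 0.72 (adjusted p = 0.0622). Mus81 had 0.22 ± 0.24 (adjusted p = 0.512) in TKO cells and 0.70 ± 0.27 (adjusted p = 0.0538) in WT cells, where the block gave 0.70 ± 0.23 (adjusted p = 0.0483). The resolvase Gen1 had -0.34 ± 0.45 in TKO cells and -0.61 ± 0.51 in WT cells and passed in neither.

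In the Fanconi anaemia pathway, 2 of 9 members fell in TKO cells and 8 of 9 in WT cells, against 15% and 17.4% of all genes. The TKO count is not far above the share of all genes. Fancd2, with Fanci, is the pair that receives ubiquitin at a crosslink. It had 602, 579, 647, 1092 and 156 in TKO EB and 1202, 1308 and 1080.2 in TKO ESC, against 145, 246 and 236 in WT EB and 1243, 1085 and 930.0 in WT ESC. Dutch EB lay within the TKO ESC range and Ta1-12 within the WT EB range, with the other TKO EB arrays between. The change was -1.19 ± 0.46 (adjusted p = 0.0616) in TKO cells and -2.41 ± 0.52 (adjusted p = 0.00329) in WT cells. Fanci had -1.25 ± 0.47 (adjusted p = 0.0533) in TKO cells and -2.24 ± 0.53 (adjusted p = 0.00498) in WT cells.

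Fancm, a DNA translocase that anchors the core complex, read 275, 418, 249, 512 and 159.6 in TKO EB and 683, 692 and 815 in TKO ESC. In WT EB it read 107, 225 and 181, against 643, 565 and 499 in WT ESC. No EB array reached an ESC array of its genotype, and the fall was -1.29 ± 0.34 (adjusted p = 0.0117) in TKO cells, -1.42 ± 0.42 (adjusted p = 0.0531) with the block, and -1.79 ± 0.39 (adjusted p = 0.0032) in WT cells. Fancc, a core complex subunit, had 189.7, 251, 217, 232 and 137 in TKO EB and 415, 291 and 287 in TKO ESC. It had 105, 147 and 117 in WT EB and 301, 381 and 247 in WT ESC. Its fall of -0.70 ± 0.24 (adjusted p = 0.039) in TKO cells became -0.77 ± 0.25 (adjusted p = 0.0659) with the block, and it fell by 1.33 ± 0.27 (adjusted p = 0.0024) on the log2 scale in WT cells.

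A second probe set of Fancc went the other way. It rose in TKO cells, at 0.55 ± 0.18 (adjusted p = 0.0321), and had 0.24 ± 0.20 (adjusted p = 0.36) in WT cells. Fancg, another core subunit, passed in neither genotype by the probe set used, at 0.07 ± 0.27 in TKO and 0.35 ± 0.30 in WT cells. Its second probe set fell in both, at -0.73 ± 0.27 (adjusted p = 0.0494) and -0.85 ± 0.30 (adjusted p = 0.037), so the direction for these 2 genes is uncertain. The remaining members, Fanca (-1.93 ± 0.52), Fancb (-1.05 ± 0.35), the ubiquitin ligase Fancl (-1.36 ± 0.33) and the helicase Brip1 (-1.49 ± 0.52), fell in WT cells, and Brip1 lost its call with the block at -1.49 ± 0.52 (adjusted p = 0.0611). In TKO cells these 4 had -0.96 ± 0.46, -0.40 ± 0.31, -0.74 ± 0.29 and -0.55 ± 0.46, and none passed.

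In mismatch repair 3 of 4 members fell in each genotype, against 15% of all genes in TKO and 17.4% in WT cells, and they were the same 3. Msh3, the partner that recognises larger loops, had 269.8, 298, 271, 238 and 251 in TKO EB and 483, 458 and 546 in TKO ESC. It had 215, 259.9 and 236 in WT EB and 522, 478 and 472 in WT ESC. Every EB array of either genotype lay below every ESC array, and TKO EB Ta1-12 did not stand apart. The fall was -0.90 ± 0.15 (adjusted p = 0.000891) in TKO cells and -1.05 ± 0.17 (adjusted p = 0.000694) in WT cells, with a difference between them of 0.15 ± 0.23 (adjusted p = 0.975).

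Mlh3, an endonuclease subunit, had 66.0, 177, 111, 267 and 118 in TKO EB and 471, 629.7 and 526 in TKO ESC, and 152, 93.6 and 153 in WT EB and 409, 442 and 292 in WT ESC. EB lay below ESC without overlap in both genotypes, and the TKO fall of -2.02 ± 0.37 (adjusted p = 0.00162) was the largest of any member in TKO cells. In WT cells it was -1.54 ± 0.42 (adjusted p = 0.0108). Msh6, which recognises single mispaired bases, had 3368, 6381, 3400.1, 9135 and 2549 in TKO EB and 10098, 9249 and 9014 in TKO ESC. Its WT values were 1711, 2696 and 2703 in EB and 10039, 9422 and 7953 in ESC. Only Dutch EB reached the ESC range. The fall was -1.09 ± 0.34 (adjusted p = 0.0242) in TKO cells, -1.14 ± 0.36 (adjusted p = 0.0632) with the block, and -1.97 ± 0.38 (adjusted p = 0.00181) in WT cells. Pms2 had -0.65 ± 0.25 (adjusted p = 0.0611) in TKO cells and -0.72 ± 0.28 (adjusted p = 0.0566) in WT cells. Its other 2 probe sets disagreed, at -0.68 ± 0.23 (adjusted p = 0.0319) and 0.17 ± 0.27 (adjusted p = 0.638) in TKO cells.

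**Figure D2:**
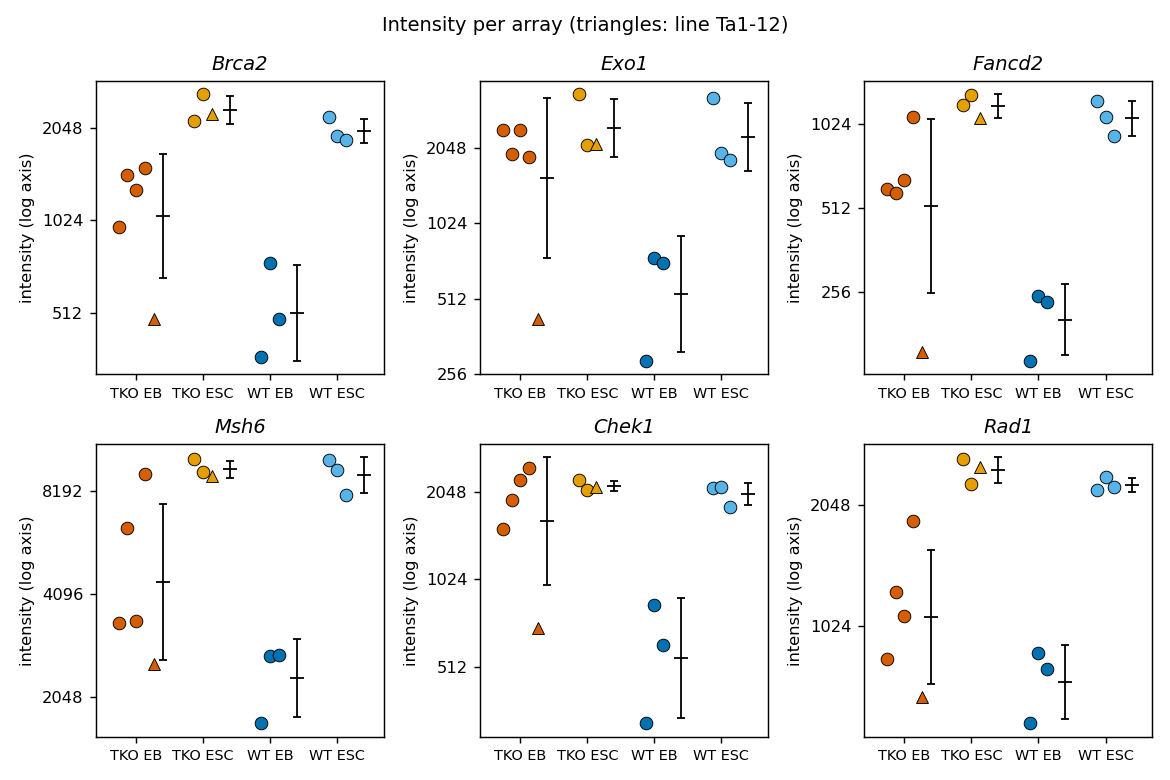
Intensity per array (log axis) of 6 members in TKO EB, TKO ESC, WT EB and WT ESC; triangles are line Ta1-12, and the bar beside each group is the mean and SD of the log2 values. For Brca2, Exo1, Fancd2, Msh6 and Chek1 the 4 TKO EB arrays other than Ta1-12 lie above all WT EB arrays, and for Rad1 they do not.

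In the checkpoint, 3 of 8 members fell in TKO cells and 7 of 8 in WT cells, against 15% and 17.4% of all genes. The kinase Atr had 1235, 1564, 1406, 2548 and 878 in TKO EB and 1744, 2486 and 1914 in TKO ESC, and 899, 1005 and 807 in WT EB and 2713, 1875 and 1758 in WT ESC. Its change was -0.50 ± 0.28 (adjusted p = 0.186) in TKO cells, where the stages overlapped through Dutch, and -1.21 ± 0.31 (adjusted p = 0.00882) in WT cells. Chek1, the kinase that ATR switches on, had 1527, 1914, 2251, 2469 and 698 in TKO EB and 2244, 2074 and 2125 in TKO ESC. In WT EB it had 327, 834 and 607, against 2109, 2124 and 1818 in WT ESC. TKO EB of 7-4-1 and Dutch stood above all 3 TKO ESC arrays, and the change was -0.40 ± 0.37 (adjusted p = 0.422) in TKO cells and -1.87 ± 0.42 (adjusted p = 0.00391) in WT cells.

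The clamp subunits Rad1 and Hus1, which ring the DNA at damage, fell in both genotypes. Rad1 measured 848, 1249.8, 1087, 1869 and 683 in TKO EB, against 2674, 2317 and 2556 in TKO ESC, and 587, 877 and 802 in WT EB, against 2234, 2406 and 2274 in WT ESC. Stages were separate in both genotypes, at -1.22 ± 0.27 (adjusted p = 0.00401) in TKO cells and -1.63 ± 0.30 (adjusted p = 0.00134) in WT cells. Hus1 had 640.1, 739, 692, 1603 and 478 in TKO EB and 2171, 1873 and 1363 in TKO ESC, and 451, 623 and 498 in WT EB and 2288, 1141 and 1032 in WT ESC. Dutch EB again lay in the ESC range, and the change was -1.22 ± 0.36 (adjusted p = 0.0191) in TKO cells, -1.13 ± 0.39 (adjusted p = 0.0797) with the block, and -1.42 ± 0.40 (adjusted p = 0.0132) in WT cells.

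Rad9a, the third clamp subunit, had -0.51 ± 0.19 in TKO cells, just short of the threshold, and -0.71 ± 0.21 (adjusted p = 0.0168) in WT cells, lost with the block at -0.71 ± 0.26 (adjusted p = 0.0711). Atrip, the partner of ATR, had -0.57 ± 0.17 (adjusted p = 0.0201) and -0.61 ± 0.19 (adjusted p = 0.0213), and with the block -0.50 ± 0.22 (adjusted p = 0.151) in TKO and -0.61 ± 0.22 (adjusted p = 0.0701) in WT cells. Topbp1, the activator of ATR whose promoter is shown above, had 4770.4, 4707, 5475, 5052 and 3078 in TKO EB and 4378, 4630.4 and 3965 in TKO ESC. It had 1687, 3184 and 3537 in WT EB and 4299, 4766 and 4179 in WT ESC. Apart from Ta1-12, TKO EB stood above every TKO ESC array, with 0.07 ± 0.23 (adjusted p = 0.83) in TKO cells and -0.72 ± 0.25 (adjusted p = 0.0352) in WT cells. Clspn, the adaptor between ATR and CHK1, passed in neither, at 0.09 ± 0.44 in TKO cells and -1.03 ± 0.49 (adjusted p = 0.106) in WT cells.

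The change from ESC to EB also varied between lines of 1 genotype. The median of the 36 members was -0.38 in TKO 7-4-1, -0.17 in TKO Dutch and -1.62 in the line labelled TKO Ta1-12, against -2.14 in WT B21, -1.01 in WT J1 and -1.16 in WT R1. Members lower by more than 1 on the log2 scale numbered 6, 1 and 30 of 36 in those TKO lines and 31, 18 and 23 of 36 in those WT lines. Over all genes tested these shares were 13%, 3.68% and 14% in the TKO lines and 15.5%, 11.8% and 12.4% in the WT lines. Lines with like shares over all genes thus differed in members, within a genotype too. TKO 7-4-1 had 6 and TKO Ta1-12 had 30, and WT J1 had 18 and WT R1 had 23. Chek1 changed by 0.00, 0.25 and -1.61 in the TKO lines and by -2.69, -1.35 and -1.58 in the WT lines, and Rad1 by -1.30, -0.31 and -1.90 and -1.93, -1.46 and -1.50.

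**Figure D3:**
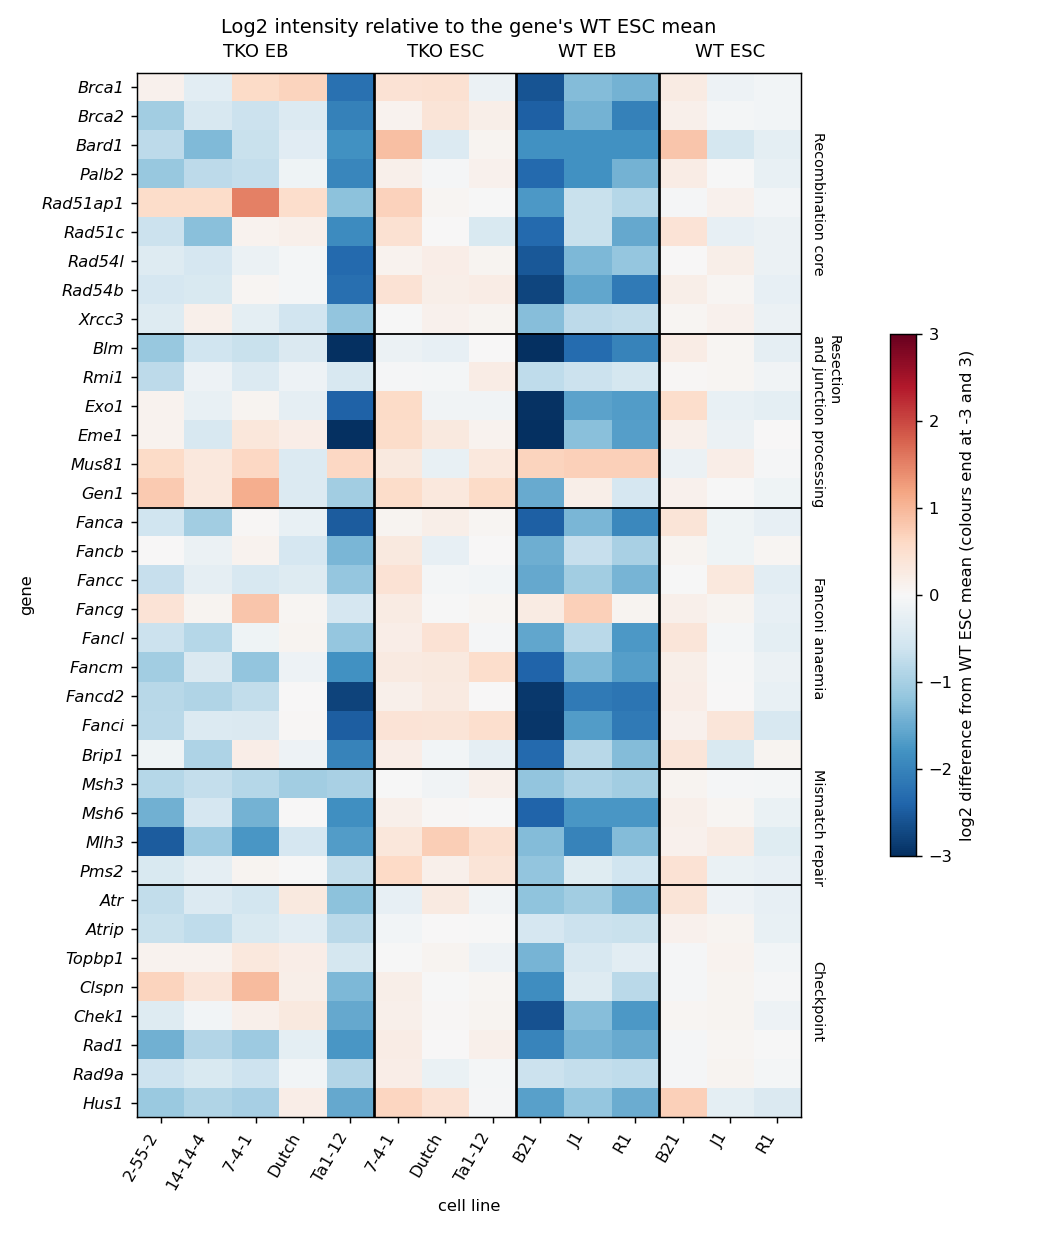
Log2 intensity of each member relative to its WT ESC mean, by array; columns are grouped as TKO EB, TKO ESC, WT EB and WT ESC and rows by role. WT EB and TKO EB Ta1-12 are blue (lower) in most rows, while the other 4 TKO EB arrays are paler, and Msh3 and Mlh3 are blue in all EB arrays.

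The difference between genotypes in the change was tested directly, and 0 of 36 members passed. Before adjustment 2 members had a limma p under 0.05, Chek1 and Topbp1, and so had 3.61% of all genes, of which 0% passed after it. The difference was 1.47 ± 0.56 (adjusted p = 0.975) for Chek1 and 0.79 ± 0.34 (adjusted p = 0.975) for Topbp1. The estimate was positive, meaning that the TKO change lay above the WT change, for 33 of 36 members and for 6465 of 14360 genes. The medians were 0.75 and -0.05. By role the median was 0.83 for the recombination core, 0.69 for resection and junctions, 0.64 for the Fanconi pathway, 0.56 for the checkpoint and 0.11 for mismatch repair. Without TKO EB Ta1-12 the smallest adjusted p among members was 0.0882, for Blm, and still 0 passed, with 0.181% of all genes called.

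In undifferentiated cells no member passed for a difference by genotype. The estimate was positive for 30 of 36 members and for 6071 of 14360 genes. With 3 TKO ESC and 3 WT ESC arrays, 0 of 36 members passed by limma, 0 had an unadjusted p under 0.05, and the median log2 fold change was 0.11 against -0.02 for all genes. Of all genes, 0% passed and 2.74% had an unadjusted p under 0.05. Arrays of both genotypes did not overlap for 4 members, each higher in TKO ESC, and for 4.63% of all genes in that direction and 6.83% in the other. These were Fanci (0.43 ± 0.53), Fancm (0.36 ± 0.39), Gen1 (0.48 ± 0.51) and Mlh3 (0.52 ± 0.42). The estimates of the 36 members ran from -0.14 to 0.52. Their standard errors come from a spread pooled over all groups, EB included. The median SD of a member was 0.146 in TKO ESC and 0.198 in WT ESC, against 0.671 in TKO EB and 0.474 in WT EB. The test was thus less sensitive here than the ESC spread alone would allow. With only the ESC arrays fitted, still 0 members passed.

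In EB, members stood higher in TKO than in WT, and whether this passed the test turned on the array labelled Ta1-12. With all 5 TKO EB arrays against 3 WT EB, 0 of 36 members passed by limma (0% of all genes), and 19 had an unadjusted p under 0.05, against 14.1% of all genes. The median log2 fold change was 0.82 against -0.10 for all genes. The smallest adjusted p was 0.304. Without that 1 array, 21 of 36 members were higher in TKO EB and 0 lower, where 3.33% of all genes were higher and 6.64% lower. Leaving out both Ta1-12 arrays gave 17 higher and 0 lower, where 2.69% of all genes were higher and 5% lower. The Ta1-12 array was left out for an Rbl1 signal above every WT EB array, by a small margin (1096 against 1089.6 in J1). Its member values were known by then. It was the lowest TKO EB array for 32 of 36 members, against 19.5% of all genes, so its removal by itself favours such calls. The counts and adjusted p-values without it are thus no independent test of a genotype difference. Dutch, with an Rbl1 signal below every WT EB array but well above the other 3 TKO EB lines, was kept. Without the EB arrays of both Ta1-12 and Dutch, an alternative added after seeing the data, 17 members were higher and 0 lower, where 2.69% of all genes were higher and 5.51% lower.

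The members that passed without it had these values. Brca1 had 2116, 1557, 2888, 3082 and 409.7 in TKO EB and 323, 792 and 725 in WT EB, a log2 fold change of 2.03 ± 0.33 (adjusted p = 0.005) over the first 4 TKO arrays and of 1.53 ± 0.55 (adjusted p = 0.309) over all 5. Rad51ap1 had 2182, 2183, 4245, 2162 and 633 in TKO EB, with 4 arrays above every WT ESC array, and 453, 939 and 830.4 in WT EB. Its change was 1.86 ± 0.30 (adjusted p = 0.005) over 4 arrays and 1.46 ± 0.46 (adjusted p = 0.304) over 5. Chek1 had 1.87 ± 0.27 (adjusted p = 0.00328) over 4 arrays and 1.57 ± 0.37 (adjusted p = 0.304) over 5, and Exo1 had 2.01 ± 0.33 (adjusted p = 0.005) and 1.54 ± 0.53 (adjusted p = 0.304).

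By role, the members higher without that array were 6 of 9 in the recombination core, 3 of 6 in resection and junctions, 7 of 9 in the Fanconi pathway, 1 of 4 in mismatch repair and 4 of 8 in the checkpoint, against 3.33% of all genes. Eme1 (2.09 ± 0.39, adjusted p = 0.0082), Blm (1.81 ± 0.27, adjusted p = 0.00366), Fanci (1.84 ± 0.30, adjusted p = 0.005), Fancd2 (1.79 ± 0.26, adjusted p = 0.0033) and Clspn (1.56 ± 0.30, adjusted p = 0.00907) were among them. In mismatch repair, Msh6 passed at 1.13 ± 0.31 (adjusted p = 0.0392), while Msh3 (0.18 ± 0.16, adjusted p = 0.499) and Mlh3 (0.08 ± 0.40, adjusted p = 0.927) did not. Mus81 had -0.42 ± 0.25 (adjusted p = 0.307), and it was the 1 member whose 5 TKO EB arrays lay below all 3 WT EB arrays, as for 3.04% of all genes. For 0 members did all 5 lie above, against 0.815% of all genes.

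Array by array, the 4 TKO EB arrays other than Ta1-12 lay above all 3 WT EB arrays for 24 of 36 members, against 6.06% of all genes, and below them for 1, Mus81, against 13.7%. TKO EB Ta1-12 lay within the WT EB range for 29 members, against 60.9% of all genes, and was the lowest of the TKO EB arrays for 32 members, against 19.5%. The median SD of a member was 0.364 in the 4 arrays, 0.671 in all 5 and 0.474 in WT EB on the log2 scale, against 0.365, 0.418 and 0.283 for all genes tested.

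**Figure D4:**
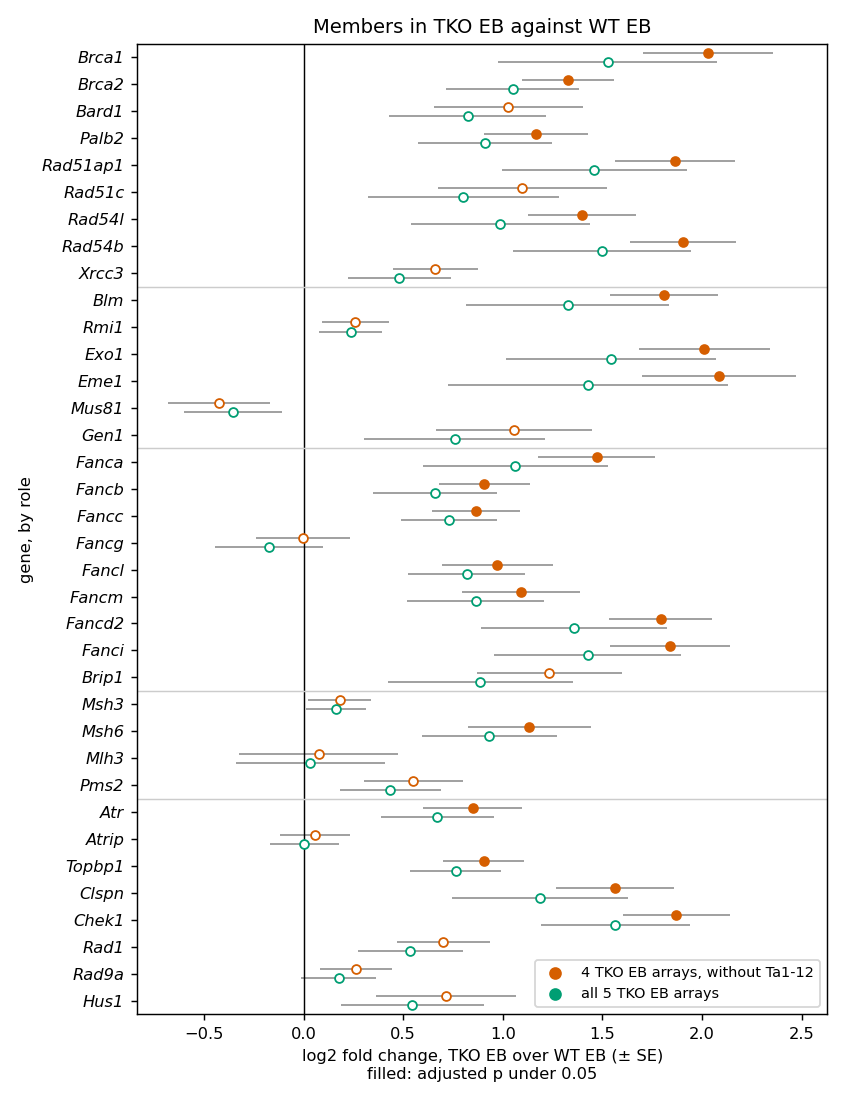
Log2 fold change of TKO EB over WT EB with its standard error for each member, with 4 TKO EB arrays (orange, without Ta1-12) and with all 5 (green); filled points passed an adjusted p of 0.05. With 4 arrays 21 members are filled, and with all 5 none is. The array left out was the lowest TKO EB array for most members, and its values were known by then.

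Among TKO EB, members, proliferation markers and pluripotency markers were each highest in Dutch and lowest in Ta1-12. TKO EB 7-4-1 was near Dutch for members and proliferation markers, but next to Ta1-12 for pluripotency markers. The mean of the 36 members relative to WT ESC was -0.51, -0.44, -0.20, -0.11 and -1.59 in TKO EB and 0.26, 0.10 and 0.08 in TKO ESC, against -1.84, -1.04 and -1.26 in WT EB and 0.19, -0.01 and -0.17 in WT ESC. That of 9 proliferation markers was 0.05, 0.02, 0.24, 0.27 and -1.44 in TKO EB and 0.01, 0.01 and -0.15 in TKO ESC, against -1.68, -0.58 and -0.77 in WT EB and -0.10, 0.07 and 0.03 in WT ESC. For members and proliferation markers WT EB B21 was the lowest of all arrays, and for pluripotency markers WT EB J1 was.

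The proliferation markers passed in 0 of 9 in TKO EB against TKO ESC and fell in 4 of 9 in WT EB against WT ESC, among them Plk1 (-0.66 ± 0.39 in TKO and -1.55 ± 0.43 in WT cells). Of all genes, 15% fell in the TKO and 17.4% in the WT comparison. Without TKO EB Ta1-12, 9 of 9 markers were higher in TKO EB than in WT EB, against 3.33% of all genes. In EB their summed intensity lay between 25579.5 and 71495 for TKO and between 21068 and 41906 for WT. In ESC it lay between 56422 and 61735 for TKO and between 58429 and 63926 for WT. No proliferation marker was under the floor on any array. The part of these markers in the results was not tested.

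Pluripotency markers fell in 6 of 10 in TKO cells and 9 of 10 in WT cells, against 15% and 17.4% of all genes. In EB they summed to between 9819 and 77306 for TKO and between 5231 and 11707 for WT. In ESC they summed to between 98122 and 105028 for TKO and between 76263 and 106248 for WT. Pou5f1, which defines pluripotent cells, was 1542, 6133, 147, 7410.3 and 17.1 in TKO EB and 38.8, 32.8 and 55.2 in WT EB. TKO EB 7-4-1 had a pluripotency mean of -4.76 and a member mean of -0.20, against -6.14 and -1.04 in WT EB J1. These arrays were not matched, since Pou5f1 was 147 and 32.8 and the proliferation mean 0.24 and -0.58. TKO EB Ta1-12 had a pluripotency mean of -6.12 and a member mean of -1.59. Without TKO EB of Dutch and 14-14-4, the arrays with the highest Pou5f1, 19 members fell in TKO cells, where 19.6% of all genes fell, and 0 differed between TKO EB and WT EB. The 3 arrays left include Ta1-12, and the part of retained stem cells was not tested further.

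**Figure D5:**
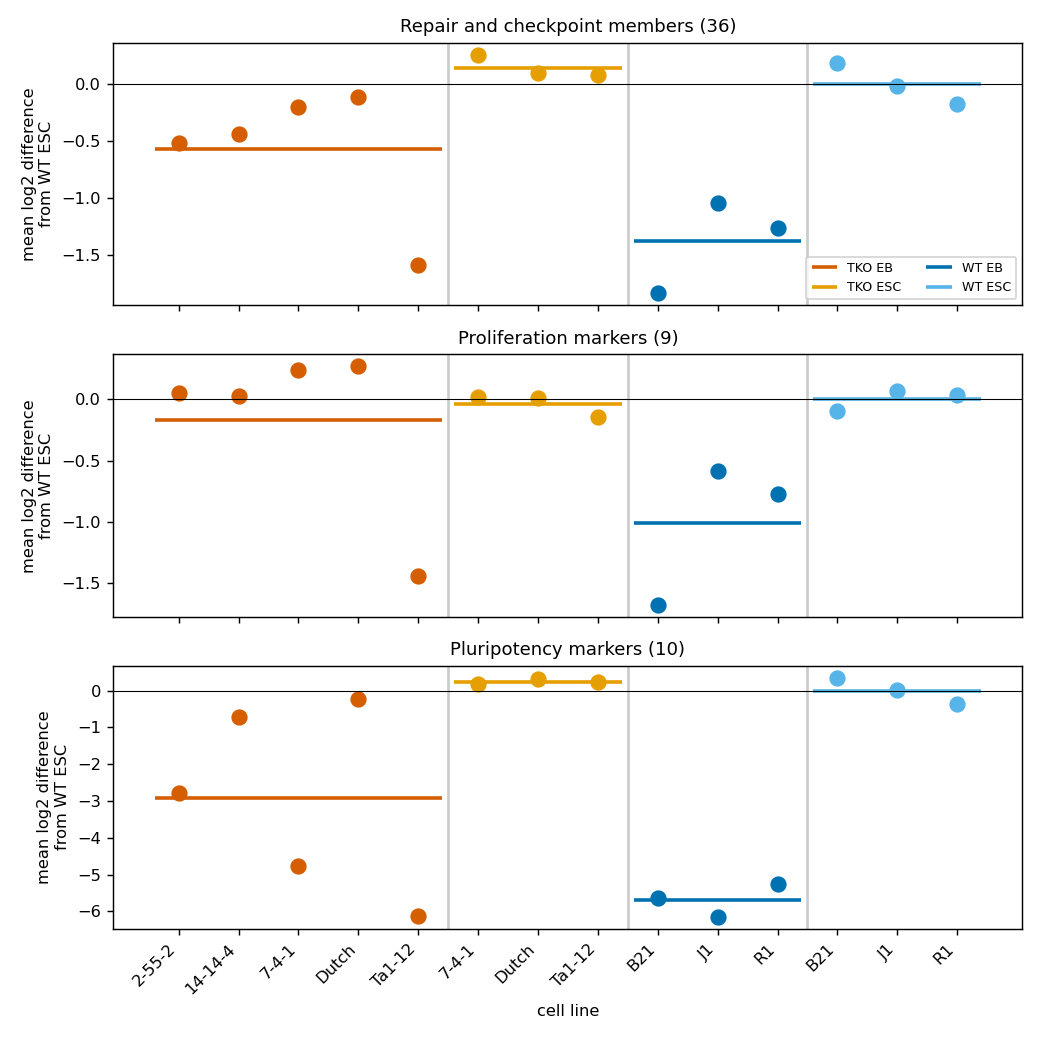
Mean log2 difference from the WT ESC mean on each array for the 36 members, 9 proliferation markers and 10 pluripotency markers; points are arrays and lines group means. TKO EB Ta1-12 lies with WT EB in all 3 panels. TKO EB 7-4-1 lies near ESC for members and proliferation markers but at -4.76, above the WT EB arrays, for pluripotency markers.

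Other genes of the same and neighbouring pathways, numbered 64 measured of 71 listed. In the TKO comparison of EB with ESC, 18 of 64 fell and 0 rose (median -0.36), and in the WT comparison 29 fell and 1 rose (median -0.53). Of all genes, 15% fell and 21% rose in the TKO comparison, and 17.4% fell and 26.5% rose in the WT comparison. Other checkpoint genes fell in 3 of 10 in TKO and 8 of 10 in WT cells. Chek2, the kinase downstream of ATM, had -1.63 ± 0.24 (adjusted p = 0.00043) in TKO and -2.22 ± 0.27 (adjusted p = 0.00019) in WT cells, and Atm had -0.72 ± 0.18 and -0.90 ± 0.20. Other recombination genes fell in 5 of 17 in TKO and 6 of 17 in WT cells, among them the end-processing nuclease Mre11a, at -1.25 ± 0.29 (adjusted p = 0.00521) in TKO cells and with an adjusted p of 0.000672 in WT cells.

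Other Fanconi genes fell in 2 of 9 in TKO and 4 of 9 in WT cells, where the ubiquitin-conjugating enzyme Ube2t had -1.10 ± 0.55 in TKO and -2.92 ± 0.61 (adjusted p = 0.00279) in WT cells. Other mismatch repair genes fell in 1 of 4 in TKO and 3 of 4 in WT cells, with Pms1 at -1.18 ± 0.36 and -1.95 ± 0.40. End joining, which repairs breaks without a copy, fell in 3 of 8 in each genotype, by -1.76 ± 0.28 (adjusted p = 0.000745) and -2.16 ± 0.32 (adjusted p = 0.00046) for Xrcc5 and -0.97 ± 0.16 (adjusted p = 0.000756) and -0.97 ± 0.18 (adjusted p = 0.00128) for Prkdc. Base and nucleotide excision repair fell in 4 of 16 in TKO and 5 of 16 in WT cells, with Parp1 at -0.90 ± 0.25 and -1.57 ± 0.28. The TKO counts of 2 of 9, 1 of 4 and 4 of 16 are not far above the 15% of all genes that fell. The median difference between genotypes was 0.02 for end joining, -0.05 for excision repair and 0.62 for other checkpoint genes. It was 0.58 for other mismatch repair, 0.42 for other Fanconi and 0.38 for other recombination genes, and none of these genes passed for it. Proliferation markers and the members each had a median of 0.75.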

How the data were processed

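RNA was extracted with Trizol, biotin-labelled and put on Affymetrix arrays, per the labels' protocols. The table the authors deposited held linear intensity values of 45101 probe sets on 14 arrays, between 0.596 and 25702. Background correction, scaling and summarisation are not given in the sources used here. Values below 32 were raised to 32 before taking log2, with no rescaling. Of the probe sets, 34958 had 1 gene symbol in the platform annotation, 932 several and 9211 none, and 34754 matched the RefSeq table of GRCm38.p6. Where a gene had several probe sets, the brightest over all arrays was used. Of 23 members with several tested probe sets, 10 had a called one in TKO EB against TKO ESC and 20 in WT EB against WT ESC, and in 3 of each the directions opposed each other.

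The model had 1 mean for each group (limma 3.58.1, R 4.3.3, eBayes with trend), and Benjamini-Hochberg adjustment ran over all genes within each comparison. The number of arrays limits the precision. The series text calls the arrays of a group biological replicates, and p-values measure the spread between lines, pooled over all groups. That spread was wider in EB than in ESC.

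Line names pair the ESC and EB arrays of 6 lines. Deviations of paired arrays from their group means correlated at 0.069, 0.197 and 0.092 in TKO 7-4-1, Dutch and Ta1-12 and at -0.046, -0.077 and -0.037 in WT B21, J1 and R1. Alternatives covered scaling, floor, filter, probe set rule, arrays fitted, array weights, prior, line block and arrays left out. The members and lists were chosen with earlier results of these data known. Members given array by array were the 3 of each role with the smallest p in WT and the 2 in TKO cells, and Brca1, Topbp1 and Rad51ap1 were added after their values were seen. The procedure was also run on simulated data with independent arrays and the same spread of a gene in all groups. The measured spread was wider in EB than in ESC, so that run does not vouch for the tests given here.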

Additional observations from a re-analysis of the deposited data

Results flagged for a closer look

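In TKO EB, the 1 group with more than 3 arrays, a value was singled out where its gap to the nearest array was large against the range of the group (Dixon's 95% limit). Of 38 sets of 5 values, 8 were singled out, each with Ta1-12 as the lowest array. Chance gives about 1 in 20, and these sets share the same arrays. The intensities were 447 for Rad54l, 122 for Rad54b, 238 for Blm, 426 for Exo1, 99.0 for Eme1 and 3078 for Topbp1. The mean relative to WT ESC was -1.59 for the 36 members and -1.44 for 9 proliferation markers.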

How the results depend on the processing

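No member that passed changed direction under any alternative run, but none of these took another single probe set of a gene. The second probe set of Fancc, fitted apart from them, rose in TKO cells, as given above. The count in TKO EB against TKO ESC, 12 as reported, was 6 with only the arrays of the compared groups (10.7% of all genes lower), 21 with array weights (22.1%), 3 with the line as a fixed replicate block (7.72%), 5 without line Ta1-12 (8.47%) and 19 without TKO EB of Dutch and 14-14-4 (19.6%). It ran from 4 to 18 when 1 array was left out (9.93% to 19.3%). The cause was not tested. Each of these except array weights uses fewer arrays. Msh3, Mlh3 and Rad1 passed under each of the 27 alternatives. In WT EB against WT ESC, 30 as reported, the count ran from 20 to 33 when 1 array was left out (12.3% to 19.3% of all genes lower). It was 34 with array weights, 33 lower (24.3%) and 1 higher (34.8%), and 16 members passed under each of 26 alternatives. With the line as a fixed block it was 27, 26 lower (14.6%) and Mus81 higher (23.1%). In TKO EB against WT EB, 0 as reported, it was 17 without line Ta1-12 (2.69% of all genes higher). It was also 17 without TKO EB of Ta1-12 and Dutch (2.69%), chosen after seeing the data. It ran from 0 to 21 when 1 array was left out, with 21 only without TKO EB Ta1-12 (3.33%). The difference between genotypes and TKO ESC against WT ESC gave 0 members under each alternative run, with lowest adjusted p-values of 0.0882 and 0.1 among them. With the line as a random block the counts were 14, 31, 0, 0 and 0 in TKO EB against TKO ESC, WT EB against WT ESC, the difference, the ESC and the EB comparison. All 14 were lower (15.3% of all genes), and of the 31, 30 were lower (17.9%) and 1 higher (27%). The fixed line block changed no other call than those given with the members. Quantile normalization moved the median of all genes to -0.07 in WT EB against WT ESC, with 31 members lower (24.3% of all genes). In TKO EB against TKO ESC it moved that median to -0.04, with 17 members lower (19.3%). A fixed line block cannot give TKO against WT values, since each line has 1 genotype.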
